A study of Mus musculus with 9 samples.

Results

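The respiratory chain and the ATP synthase of mitochondria are built from nuclear-encoded subunits, whose mRNAs were followed here in mouse testicular peritubular myoid cells after a heat pulse. The genes were taken by symbol, as every entry of the deposited gene table named Ndufa, Ndufb, Ndufc, Ndufs or Ndufv, Sdha to Sdhd, Uqcr, Cox4 to Cox8 or Atp5. The symbols matched 92 of 20717 listed genes, 91 of them had values in the libraries (of 17559 genes with values), and 88 passed the filter and were tested (of 11460 tested). The match by symbol also takes in 7 complex I assembly factors (Ndufaf1 to Ndufaf7), the supercomplex factor Cox7a2l, and Atp5s and Atp5sl, which carry the synthase's name without being subunits of it. The cells were primary peritubular myoid cells of C57BL/6J mice, grown in DMEM/F12 medium with fetal bovine serum at 37 °C. The 9 libraries form 3 groups of 3: untreated control cells, and cells warmed in a bath of 42 °C during 30 min, then grown again as before and collected after 1 h or 6 h. The series asks what heat stress does to these cells. The labels number the replicates and leave their origin unstated (separate animals, separate cultures or neither), so p-values measure a spread that may be technical.

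Electrons from NADH enter the chain at complex I (the Nduf genes) and those from succinate at complex II (Sdha to Sdhd, which is also an enzyme of the citric acid cycle). Ubiquinone carries them to complex III (the Uqcr genes) and cytochrome c to complex IV, cytochrome c oxidase (the Cox genes and Ndufa4), which reduces oxygen. Complexes I, III and IV pump protons across the inner mitochondrial membrane, and complex V (the Atp5 genes) lets them return and makes ATP. Several complex IV subunits exist as a widely used form and as a form restricted to muscle, lung, brown fat or testis. The subunits encoded by mitochondrial DNA are not analysed here.

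Estimated depth ran from 18900000 to 20000000 reads, a ratio of 1.06. Hspa1a, the heat-inducible HSP70, was at 6.92 to 12.3 FPKM in the control libraries, 1228 to 1794 at 1 h and 27.1 to 49.3 at 6 h, as the labels have it. Hsph1, an HSP110, was at 18.6 to 23.1 FPKM in the controls and 302 to 447 at 1 h, and at 6 h it was at 289 in library 1 against 15.9 and 110 in libraries 2 and 3. FPKM is a library's fragment count scaled to transcript length and to the library's mapped fragments, so a value is relative to its library. The sum over genes is not fixed, and ran from 433744 FPKM in control 3 to 536932 in 6 h library 2. All 7 peritubular myoid markers were at 1 FPKM or more in every library, with summed levels of 3876 to 4886 FPKM in the controls, 3710 to 3993 at 1 h and 3256 to 4816 at 6 h. Of 9 Sertoli cell markers 4 were at 1 FPKM or more in every library, and the list summed to 3065 FPKM in control library 3 against 249 to 513 in the other 8. In control 3, Clu was at 2700 FPKM (175 to 437 elsewhere), Cldn11 at 237 (0.73 to 8.23), Wt1 at 53.8 (2.21 to 15.4), Sox9 at 27.7 (2.44 to 15.9) and Gata1 at 6.27 (0 to 0.25), while the receptor Fshr was at most 0.09 and Amh at most 0.26 in any library. Inhbb, also on the list, was not raised in control 3, at 38.6 FPKM (33.0 to 92.3 elsewhere). The Leydig list summed to 872 to 2138 FPKM over the 9 libraries, the macrophage list to 43.4 to 233, the endothelial list to 17.8 to 49.2, the germ cell list to 1.11 to 8.37 and the erythroid list to 0.05 to 7.08. Of 7 Leydig markers 3 were under 1 FPKM in every library. Insl3 was lowest in control 3, at 181 FPKM (327 to 1607 elsewhere), but Cyp11a1, Hsd3b1 and Star were not. The macrophage sum was 168 and 227 in 1 h libraries 2 and 3, 233 and 205 in 6 h libraries 1 and 2, and at most 84.4 elsewhere. The erythroid maximum was Alas2 in control 3. The brown fat and striated muscle list summed to at most 0.98 FPKM, with every gene below 1 FPKM.

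The subunit mRNAs were abundant. The median tested member lay above 91.5% of all tested genes in mean FPKM, and together the 91 genes took 2.12% to 2.67% of the summed FPKM of a library. Cox6a1, a nuclear subunit of complex IV, was the highest, with 691, 605 and 572 FPKM in control libraries 1, 2 and 3, 553, 532 and 683 at 1 h, and 591, 807 and 668 at 6 h. The 3 groups overlapped. Atp5b, the catalytic beta subunit of the synthase, came next, with 553, 739 and 488 FPKM in the controls, 532, 552 and 482 at 1 h, and 472, 701 and 697 at 6 h. Its groups overlapped as well, and its range over the libraries covered the mean of Cox6a1 (634 FPKM), so the order of these top genes lies within their spread.

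Levels per length differed between complexes. The 11 common subunits of complex IV had a median of 303 FPKM over the 9 libraries, the 15 subunits of complex V 201, the 8 of complex III 120, the 36 of complex I 76.6 and the 4 of complex II 62.6. Within complex I, the 7 core subunits that carry the electron path from NADH to ubiquinone had a median of 53.6 FPKM and the 29 accessory subunits one of 83.7. The lowest core subunit was the iron-sulfur subunit Ndufs1, at 33.5 FPKM. Ndufa3 led the accessory subunits and complex I as a whole, at 221 FPKM, and Ndufa11 was the lowest at 13.2. The assembly factors, which build the complex without staying in it, had a median of 7.09 FPKM, from 4.22 for Ndufaf5 to 22.4 for Ndufaf2. Sdhc, a membrane anchor of complex II, stood at 119 FPKM above its 3 partners, of which the iron-sulfur subunit Sdhb was the lowest at 51.9. Uqcrh, the hinge protein of complex III, led that complex at 227 FPKM, and the core protein Uqcrc1 was its lowest at 60.4. In complex V the lowest subunit was Atp5g1, which encodes the membrane ring's c subunit, at 111 FPKM. The other c-subunit genes, Atp5g3 and Atp5g2, encode the same mature protein, and Atp5g3 was at 341 FPKM.

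**Figure D1:**
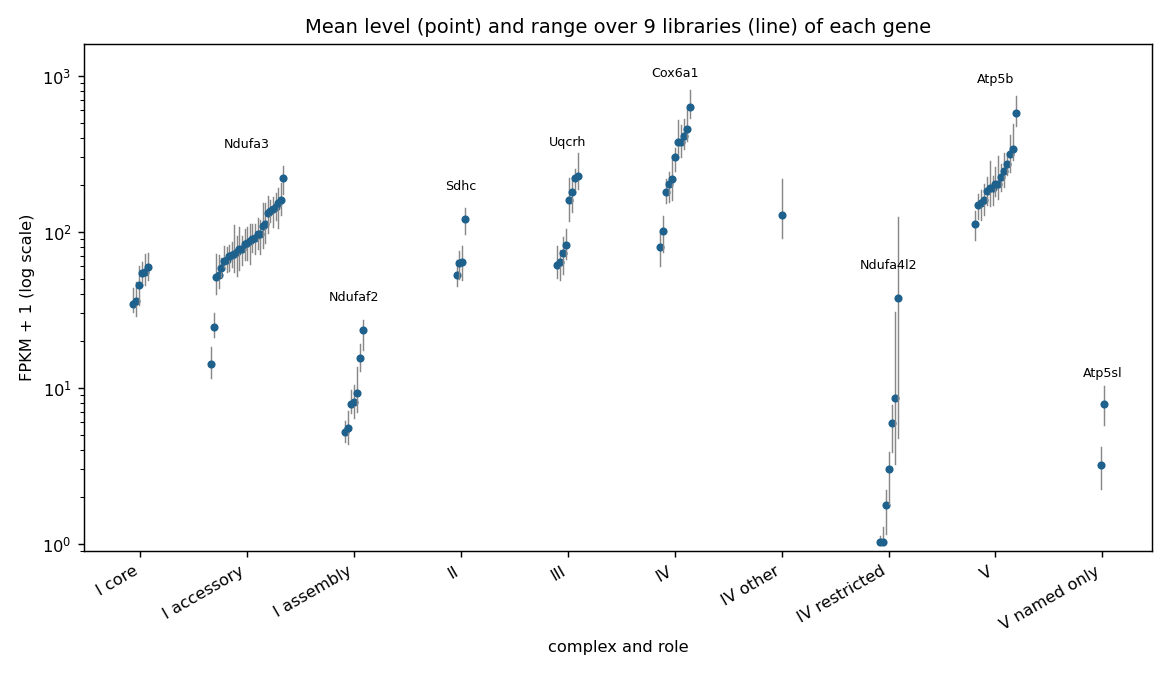
Mean FPKM over the 9 libraries of each gene shown (points, FPKM + 1 on a log axis) with the range over the libraries (lines), by complex and role, where "IV other" is Cox7a2l and "V named only" holds Atp5s and Atp5sl. The common subunits of complexes IV and V reach the highest levels, topped by Cox6a1 at 634 and Atp5b at 580 FPKM, and most restricted complex IV forms, the assembly factors, Atp5s and Atp5sl lie at the low end, with Ndufa4l2 above them at 36.4 FPKM.

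The restricted isoforms of complex IV were low beside their common partners, with 1 exception. Cox6a2, the heart and skeletal muscle form, was at 0.16 to 1.21 FPKM and made up at most 0.202% of Cox6a1 plus Cox6a2. Cox7b2 was listed at 0 in 8 libraries and at 0.28 FPKM in 6 h library 2, Cox8c at 0 in 7 libraries and at most 0.12, and Cox8b had no value. Cox6a2, Cox7b2 and Cox8c did not pass the filter. Cox6b2, the testis form of Cox6b, was at 0.79 to 2.89 FPKM, and it made up 0.219% to 0.781% of its pair. Cox7a1, the muscle form of Cox7a, was at 2.89 to 6.76 FPKM, 2.27% to 6.70% of its pair with Cox7a2. Cox4i2, the lung form of Cox4, made up 0.679% to 8.38% of its pair with Cox4i1. The exception was Ndufa4l2, the hypoxia-responsive relative of Ndufa4, which made up 1.07% to 33.6% of its pair. Germ cell and striated muscle markers, the cell types in which some of these forms are best known, were at the sums given above. The longest run of bases shared by the partners' transcripts was 11 to 28 nucleotides in the pairs compared, 28 for Ndufa4 and Ndufa4l2 and 14 for Cox4i1 and Cox4i2.

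The table placed 3 of the 92 genes (3.26%, against 0.862% of all genes with a RefSeq entry) elsewhere than RefSeq does. Ndufs5, an accessory subunit of complex I, was placed at chr16:42955560-42956074 (mm10) within Zbtb20, over the processed pseudogene BC002163, while RefSeq has it at chr4:123712710-123718186. Atp5g2 was placed at chr17:5816054-5816700 over the processed pseudogene Gm10231, with its RefSeq position at chr15:102662868-102671047. Atp5h, the d subunit of the synthase stalk, was placed at chr15:5120602-5121172 over the processed pseudogene Gm10250, with its RefSeq position at chr11:115415691-115419919. In each case the placed span equals the transcript's length (515, 647 and 571 bp), as an intronless copy would give. Reads of gene and copy could not be separated, so the values of Ndufs5 (117 to 177 FPKM), Atp5g2 (162 to 306) and Atp5h (229 to 321) are uncertain as to their source.

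Promoter sequence was also looked at for these genes, which belong to 5 complexes on many chromosomes. RefSeq promoters (GRCm38.p6, 250 bases before to 50 after each start) were at hand for 76 of the 92 genes. The NRF1-type motif, a nearly palindromic run of bases with 1 open position, searched on both strands, was in the promoters of 19 of the 76 (25.0%), against 11.9% of tested genes and 5.19% of all genes in the promoter table. The YY1-type motif was in 6 (7.89%, against 2.54% and 0.995%), the ETS-type motif in 5 (6.58%, against 9.57% and 4.31%), and the heat shock element in 0 of 76 (against 0.565% and 0.662%). NRF1, ETS proteins of the GABP type and YY1 are known regulators of nuclear genes for mitochondrial proteins. The stretches below show how densely the first motif can lie in front of a subunit gene, with 3 copies in Sdha and 2 in Cox6a1, and a YY1-type match for contrast in Atp5j, the F6 subunit of the synthase. Each reads 5′ to 3′ on the gene's strand, with the motif in capitals.
Cox6a1, chr5:115349033-115349150, minus strand: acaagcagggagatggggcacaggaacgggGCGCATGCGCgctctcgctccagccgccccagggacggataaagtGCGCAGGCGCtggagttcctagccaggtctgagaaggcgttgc
Sdha, chr13:74350241-74350368, minus strand: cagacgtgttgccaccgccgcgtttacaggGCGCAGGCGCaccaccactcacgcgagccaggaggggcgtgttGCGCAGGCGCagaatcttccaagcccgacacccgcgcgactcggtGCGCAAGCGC
Sdhd, chr9:50603886-50603958, minus strand: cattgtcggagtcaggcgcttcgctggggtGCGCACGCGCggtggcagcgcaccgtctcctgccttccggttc
Atp5k, chr5:108434407-108434479, minus strand: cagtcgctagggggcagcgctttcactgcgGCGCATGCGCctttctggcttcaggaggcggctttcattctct
Atp5j, chr16:84835022-84835094, minus strand: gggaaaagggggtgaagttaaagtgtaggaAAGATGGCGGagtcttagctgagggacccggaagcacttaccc
The capitals begin 162 and 117 bases before the start in Cox6a1, 98, 55 and 10 in Sdha, 79 in Sdhd, 50 in Atp5k and 88 in Atp5j. A match is a description of letters and no evidence of binding. Among tested members, the 19 with the NRF1-type motif had a median log2 change of −0.22 at 1 h against control, 0.03 at 6 h against control and 0.27 from 1 h to 6 h. The 55 without it had −0.20, 0.09 and 0.29.

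The genes varied together from library to library, and the libraries of a group did not sit together. Against each gene's mean over the 9 libraries, the median member deviated by 0.15, 0.18 and −0.20 log2 units in control libraries 1, 2 and 3, by −0.18, −0.21 and −0.12 at 1 h, and by −0.13, 0.29 and 0.19 at 6 h. Control library 3 lay with the 1 h libraries, and so did 6 h library 1. Hsph1 was also near its 1 h level in 6 h library 1, but the other heat-response genes looked at were not. Hspa1a, Hspa1b and Dnajb1 were at 49.3, 85.5 and 24.2 FPKM there. At 1 h they were at 1228 to 1794, 1635 to 2426 and 439 to 658. The part of the heat response in the members' values of that library was not tested. Of the 88 tested members 76 (86.4%, against 37.3% of all tested genes) had control 3 below controls 1 and 2, and 82 (93.2%, against 38.6%) had 6 h library 1 below 6 h libraries 2 and 3. The highest of the 9 values was in 6 h library 2 for 50 of the 88, and the lowest in control 3 for 31. For members, the median replicate SD in log2 units was 0.24 in the controls, 0.10 at 1 h and 0.25 at 6 h, against 0.24, 0.15 and 0.28 for all tested genes. The 1 h libraries therefore lay closest to each other. In 64 members (72.7%, against 35.2%) all 1 h values were below controls 1 and 2.

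**Figure D2:**
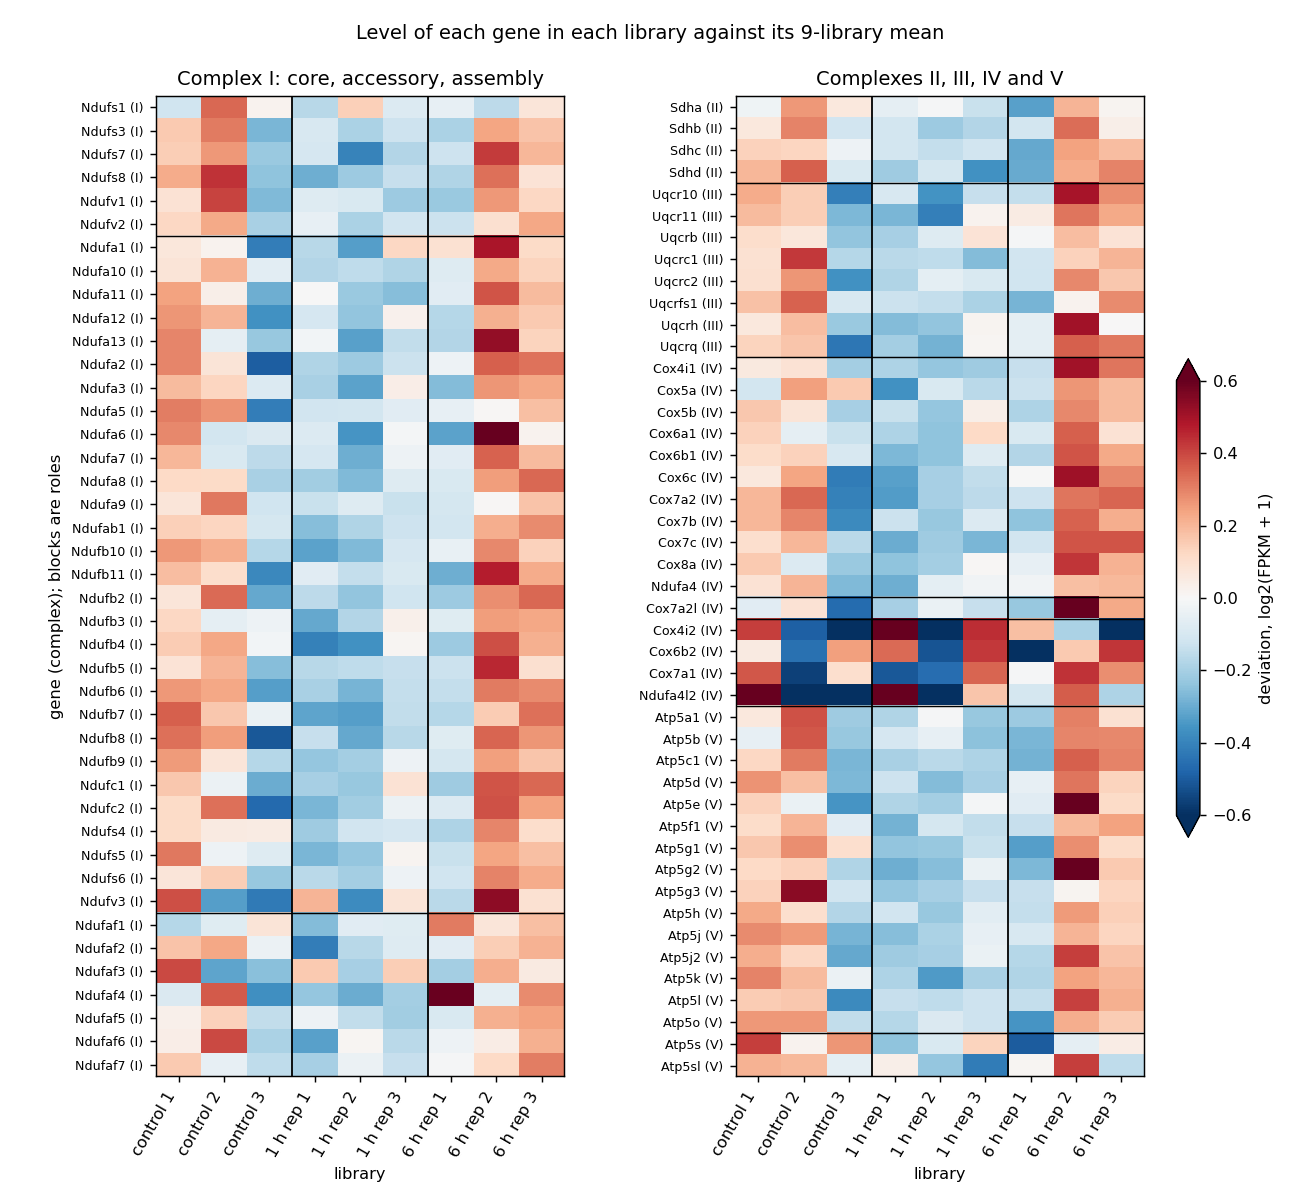
Deviation of 87 of the 88 tested genes (rows, by complex and role) from its own 9-library mean on the log2(FPKM + 1) scale in each library (columns), with colours limited to 0.6 in either direction. Controls 1 and 2 and 6 h libraries 2 and 3 are mostly above the mean and the other 5 libraries mostly below, and the restricted forms Ndufa4l2, Cox4i2, Cox6b2 and Cox7a1 follow other patterns.

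Transcript length moved with the same libraries. The tested members are short, with a median longest transcript of 752 bp against 2862 bp for all tested genes. The 412 tested genes outside the set with transcripts under 800 bp deviated by a median of 0.12, 0.13 and −0.25 log2 units in the controls, −0.14, −0.17 and −0.11 at 1 h and −0.12, 0.37 and 0.17 at 6 h, close to the members in all 9 libraries. The 1236 genes of 6000 bp or more had the opposite sign in the libraries that stood apart most, at 0.39 in control 3 and −0.43 in 6 h library 2. After each library was corrected for length by a smooth curve over all tested genes (an alternative chosen after the data were seen), the members' median change was −0.04 log2 units at 1 h against control, −0.03 at 6 h against control and 0.02 from 1 h to 6 h. The median of all tested genes was then −0.01 in each comparison. The members' median minus that of all tested genes was −0.03, 0.15 and 0.19 before correction and −0.03, −0.01 and 0.03 after. At 1 h that difference was thus the same with and without the correction. The summed level of the Sertoli markers, highest in control 3, moved with that library too, and its part in the members' values was not tested. In whole-culture RNA, fewer cells of a type and less RNA per cell cannot be told apart.

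**Figure D3:**
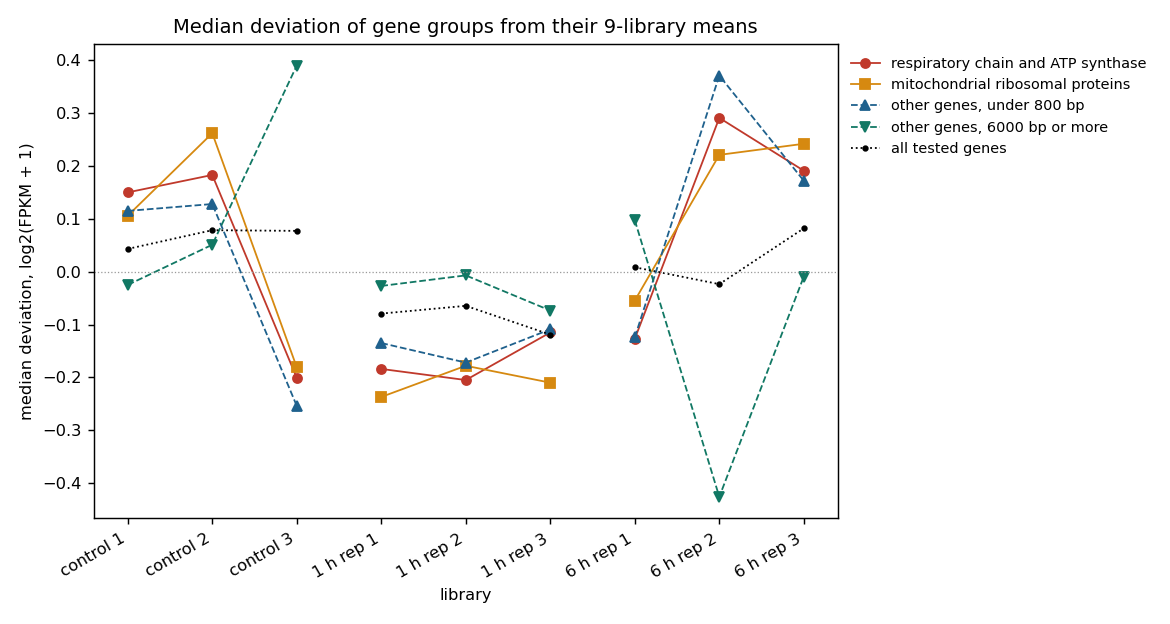
Median deviation from the 9-library mean (log2(FPKM + 1), vertical axis) in each library for the 88 respiratory genes, 77 mitochondrial ribosomal protein genes, other genes under 800 bp, other genes of 6000 bp or more and all tested genes. The respiratory genes track the short genes, from −0.20 in control 3 to 0.29 in 6 h library 2, while the longest genes run from 0.39 to −0.43 in those libraries.

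At 1 h after heat, nearly all subunit mRNAs were slightly lower than in the controls on the deposited scale. The test called none of these differences. Of 88 members 82 had a negative log2 change, as did 8729 of all 11460 tested genes. The members' median was −0.19 against −0.17 for all tested genes. Limma called 0 members at an adjusted p below 0.05 (0.157% of all tested genes were called, all of them higher). The smallest adjusted p of limma among members was 0.439. Unadjusted, 4 members had a limma p below 0.05 and were lower (Ndufb7, Atp5k, Atp5g1 and Ndufaf2, the last named after its value was seen), where 8.05% of all tested genes were, and 0 were higher. For 14 members all 1 h values lay below all control values, where 21.4% of all tested genes did, and for 0 members above. Neither count is a larger share than in all tested genes.

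Ndufb7, an accessory subunit in the membrane arm of complex I (chr8:83566758-83571623, plus strand), was at 106, 92.2 and 80.1 FPKM in the controls and 66.0, 65.4 and 74.3 at 1 h, so the groups did not overlap. Its log2 change was −0.42 with an SE of 0.17, and limma gave an unadjusted p of 0.033 and an adjusted p of 0.44. Atp5k, the e subunit at the dimer interface of the synthase, was at 185, 171 and 146 FPKM in the controls and 132, 118 and 131 at 1 h, a log2 change of −0.39 with an SE of 0.16 (limma, adjusted p = 0.446). Again the groups did not overlap. Among the c-subunit genes, Atp5g1 went from 125 ± 7.85 FPKM (SD, n = 3) to 95.7 ± 3.86 and Atp5g3 from 390 ± 90.9 to 295 ± 9.86, with log2 changes of −0.38 each and no overlap between groups. Sdhd, an anchor of complex II, stood at 71.6, 80.0 and 58.3 FPKM in the controls and 53.5, 57.8 and 48.2 at 1 h, a log2 change of −0.38 with an SE of 0.19, also without overlap.

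Complex by complex the values at 1 h were alike. The median log2 change was −0.20 over the 36 complex I subunits (35 negative), −0.23 over the 4 of complex II (4 negative), −0.18 over the 8 of complex III (8 negative), −0.18 over the 11 common subunits of complex IV (11 negative) and −0.23 over the 15 of complex V (15 negative). The core subunits of complex I had a median of −0.21 and the accessory subunits of −0.18. Only Ndufv3, an accessory subunit of the NADH-oxidising module, had a positive value among the subunits of complexes I, II, III and V, at 0.09 with an SE of 0.27. The largest positive values were those of Ndufa4l2 and Cox4i2, described below.

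Control library 3 and the scaling set the size of these values, and the scaling also the sign of part of them. Without control 3, the median over members at 1 h was −0.31 against −0.15 for all tested genes, 85 of 88 were negative, and 16 had an unadjusted limma p below 0.05, with 0 called. Leaving out 6 h library 2 as well left that median as it was and gave 32, with 0 called. Without control 2 the median was −0.12, with 79 of 88 negative. With median-of-ratios scaling in place of FPKM as deposited, the median of all tested genes moved from −0.17 to −0.01 and that of the members to −0.03, with 51 of 88 negative. Relative to all tested genes, the members' median thus differed by −0.03 on the deposited scale and by −0.01 under that scaling. After length correction 59 of 88 were negative, with a median of −0.04. With quantile normalization the members' median was −0.17 against −0.05 for all tested genes, a difference of −0.12, with 76 of 88 negative, 8 lower at an unadjusted limma p below 0.05 and 0 called.

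**Figure D4:**
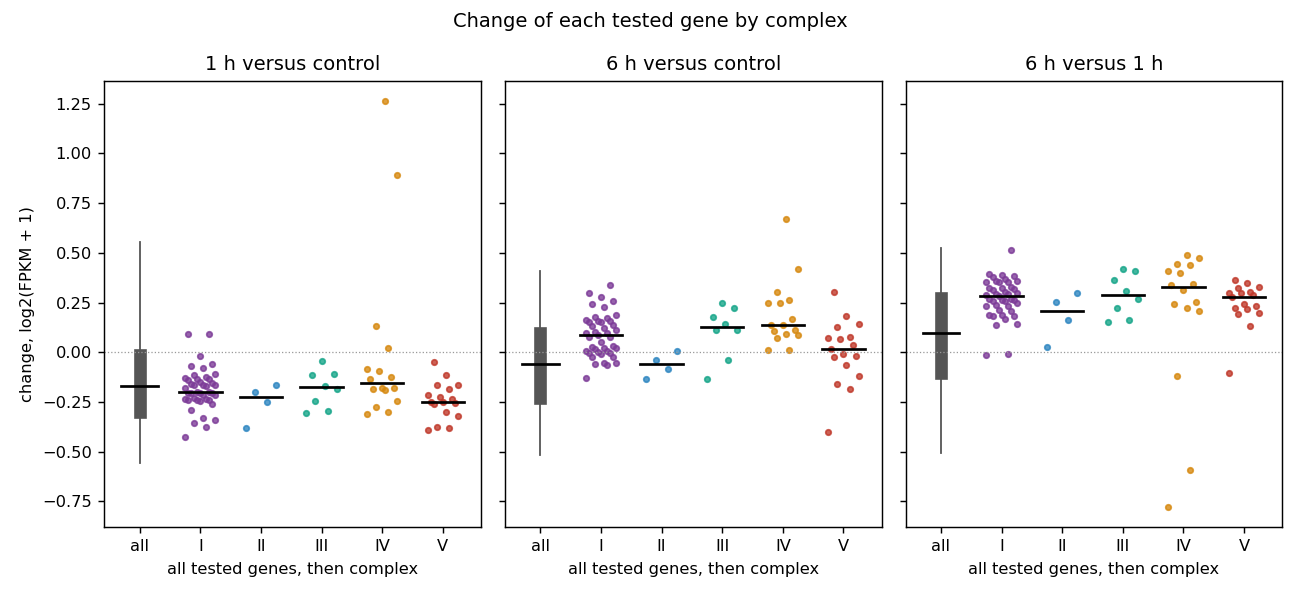
Log2 change on the log2(FPKM + 1) scale of each tested gene of complexes I to V (points, with the median as a line) in the 3 comparisons, beside all 11460 tested genes (thick bar 25th to 75th percentile, thin line 5th to 95th, line at the median). At 1 h nearly all points lie below 0 and from 1 h to 6 h nearly all lie above, with Ndufa4l2 and Cox4i2 of complex IV as the far points.

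At 6 h after heat the members were spread on both sides of the control level. Of 88 members 64 had a positive log2 change, as did 4578 of all 11460 tested genes. The members' median was 0.09 against −0.06 for all tested genes. Limma called 0 members (0% of all tested genes were called), with a smallest adjusted p of 0.877. Unadjusted, 0 members had a limma p below 0.05 and were higher, where 1.27% of all tested genes were, and 0 were lower. Ndufa1, a small membrane subunit of complex I, was the only member whose 6 h values all lay above the controls (1.89% of all tested genes did), with 79.1, 76.4 and 56.2 FPKM in the controls and 80.4, 106 and 81.5 at 6 h. The gap between the groups was small, and its log2 change was 0.34 with an SE of 0.19 (0.19 without control 3 and 0.21 without 6 h library 2). The 11 common complex IV subunits were all positive, with a median of 0.14, while complex II had a median of −0.06. Their median longest transcripts were 545 and 1233 bp, and the part of length was not tested.

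Cox7a2l, the supercomplex factor (chr17:83501917-83514333, minus strand), had the largest positive value of a gene outside the restricted forms. It was at 118, 131 and 89.7 FPKM in the controls, 108, 120 and 112 at 1 h, and 106, 219 and 145 at 6 h. Only 6 h libraries 2 and 3 exceeded the other groups. Its log2 change from control to 6 h was 0.42 (limma, adjusted p = 0.877), and 0.15 without 6 h library 2. Atp5s, which is not a synthase subunit, had the largest negative value at 6 h, −0.40, with 3.20, 2.20 and 2.79 FPKM in the controls and 1.23, 2.04 and 2.25 at 6 h. The median over all members lay between −0.05 and 0.21 when a library was left out, and it changed sign without control 3 (−0.05), without 6 h library 2 (−0.02) and after length correction (−0.03).

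From 1 h to 6 h most values of the members were higher, again with no gene called. This comparison and the previous ones share libraries, so their values are not independent. Of 88 members 82 had a positive log2 change, as did 7205 of all 11460 tested genes. The members' median was 0.28 against 0.09 for all tested genes. Limma called 0 members (0.279% of all tested genes were called, all of them lower), with a smallest adjusted p of 0.365. Unadjusted, 0 members had a limma p below 0.05 and were lower, and 6 were higher, where 8.45% of all tested genes were: Cox7c, Cox6c and Cox4i1 of complex IV, Uqcr11 of complex III, and the assembly factors Ndufaf1 and Ndufaf4. Of these, Uqcr11 and Ndufaf1 were named after their values were seen. For 20 members the 6 h values all lay above the 1 h values, where 15.2% of all tested genes did, and for 0 below.

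Cox7c, a small membrane subunit of complex IV (chr13:86044798-86046795, minus strand), was at 301, 319 and 306 FPKM at 1 h and 342, 481 and 481 at 6 h, with 397, 425 and 331 in the controls. The groups at 1 h and 6 h did not overlap. Its log2 change was 0.47 with an unadjusted limma p of 0.027 and an adjusted p of 0.365. Cox6c, another small complex IV subunit, was at 171, 186 and 193 FPKM at 1 h and 214, 305 and 261 at 6 h, a log2 change of 0.49 (limma, adjusted p = 0.404). Cox4i1, the common form of the largest nuclear subunit, was at 324, 314 and 318 FPKM at 1 h and 336, 523 and 461 at 6 h, a log2 change of 0.44 (limma, adjusted p = 0.413). In all 3 genes 6 h library 1 was the lowest of its group and close to the 1 h libraries.

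By complex, the median log2 change from 1 h to 6 h was 0.28 for complex I subunits, 0.21 for complex II, 0.29 for complex III, 0.34 for the common complex IV subunits and 0.28 for complex V. The core subunits of complex I had a median of 0.19 and the accessory subunits of 0.29. Their median longest transcripts were 1608 and 641 bp, and those of complexes II and IV were 1233 and 545 bp. The difference between complexes and the part of transcript length in it were not tested. Without 6 h library 1 the median over members was 0.41, and 41 of 88 had an unadjusted limma p below 0.05 with 0 called. Without 6 h library 2 the median was 0.18 and 2 had. After length correction 49 of 88 were positive, and under median-of-ratios scaling the median was 0.16 against −0.01 for all tested genes.

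Ndufa4l2 and Cox4i2 varied far more than the rest. Over the 9 libraries 83 of 88 members had a range below 1 log2 unit, while Ndufa4l2 ranged over 4.72 and Cox4i2 over 3.24. Ndufa4l2 (chr10:127514939-127517154, plus strand) was at 67.4, 3.74 and 12.7 FPKM in the controls, 124, 16.0 and 27.8 at 1 h, and 22.9, 32.0 and 21.6 at 6 h. Control 1 and 1 h library 1 were far above the other 7, and the groups overlapped. Within the same-numbered control and 1 h libraries, taken as paired with some uncertainty, the log2 difference was 0.87, 1.84 and 1.08. Ndufa4l2 was thus higher at 1 h in 3 of 3 pairs. Cox4i2 (chr2:152754173-152765037, plus strand) was at 7.70, 3.65 and 2.43 FPKM in the controls, 29.7, 2.24 and 7.88 at 1 h, and 6.40, 4.73 and 3.15 at 6 h. Here too 1 h library 1 was the highest, and the paired log2 differences of 1.82, −0.52 and 1.37 had both signs. At 1 h against control the log2 change was 1.26 with an SE of 0.94 for Ndufa4l2 (limma, adjusted p = 0.586) and 0.89 with an SE of 0.69 for Cox4i2 (limma, adjusted p = 0.602). With a replicate block over all 9 libraries, which also pairs the 6 h libraries, the adjusted limma p was 0.578 and 0.579. Without 1 h library 1, but with its control partner kept, the values were 0.43 and 0.05. The value of Ndufa4l2 was 2.29 without control 1 and 0.37 without control 2, and that of Cox4i2 was 0.59 without control 3 and 1.67 without 1 h library 2. From 1 h to 6 h the log2 changes were −0.59 and −0.78, and 0.24 and 0.06 without that library.

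Of 7 genes known to respond to low oxygen, a list chosen after the data were seen, some were high in the same libraries. Bnip3, a mitophagy receptor, was at 277, 94.1 and 75.0 FPKM in the controls, 259, 104 and 113 at 1 h, and 172, 87.3 and 178 at 6 h. Pdk1, which restrains pyruvate entry into mitochondria, was at 8.28, 3.13 and 4.29 FPKM in the controls, 10.5, 4.36 and 4.44 at 1 h, and 6.23, 3.60 and 5.92 at 6 h. The whole list summed to 477, 194 and 193 FPKM in the controls, 480, 255 and 326 at 1 h, and 484, 175 and 348 at 6 h. Its sum was thus as high in 6 h library 1, where Ndufa4l2 and Cox4i2 were not. Egln3, Slc2a1, Ankrd37 and Vegfa had their highest value in that library (10.5, 187, 5.29 and 104 FPKM). Vegfa was higher in 1 h library 3 (87.2 FPKM) than in 1 h library 1 (74.9), and at 45.9 in control 1 it was near the 42.3 of control 3. The part of oxygen supply in these values was not tested.

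**Figure D5:**
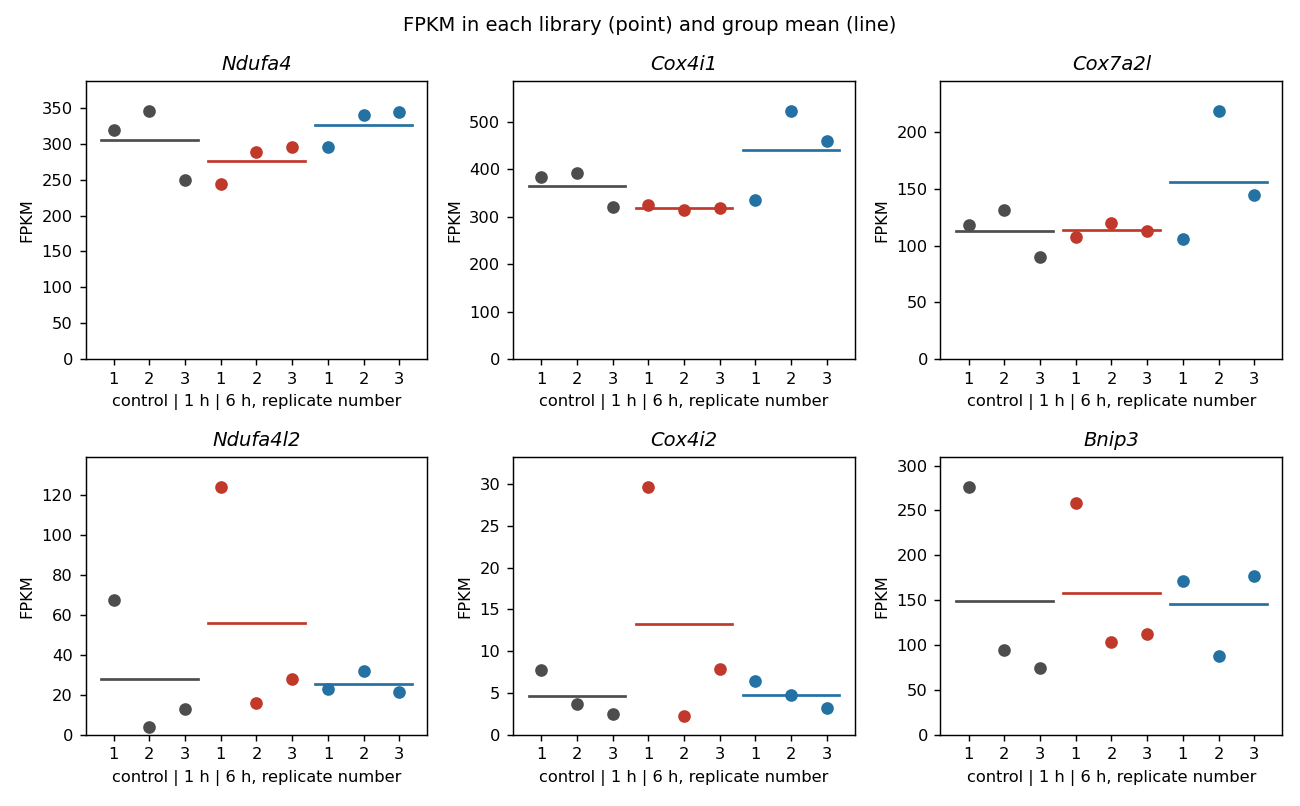
FPKM of Ndufa4, Cox4i1, Cox7a2l, Ndufa4l2, Cox4i2 and Bnip3 (linear axes from 0) in each library (points by replicate number) with the group means (lines). Ndufa4l2 reaches 67.4 FPKM in control 1 and 124 in 1 h library 1 and stays at 32.0 or below elsewhere, while its partner Ndufa4 lies between 245 and 346 in all 9 libraries.

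The common partners of these forms kept to a narrower range. Ndufa4, now counted as a complex IV subunit, was at 319, 346 and 250 FPKM in the controls, 245, 288 and 296 at 1 h, and 295, 340 and 344 at 6 h. Cox6b1 and Cox8a, the common forms of their subunits, were at 337 to 527 and 381 to 608 FPKM over the 9 libraries. Cox7a2 ranged from 73.7 to 125 FPKM and Cox7b from 59.1 to 98.9. None had an adjusted limma p below 0.05 in any comparison.

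Apart from the restricted forms, the members that followed the common library pattern least were of several roles. The median SD of a member about the members' own median was 0.12 log2 units, and 5 of the 7 assembly factors were above it. It was 0.31 for Ndufaf4, 0.29 for Atp5s and Ndufv3, 0.26 for Ndufaf3 and 0.25 for Ndufaf1 and Ndufs1. Ndufaf4, an early assembly factor of complex I, was at 7.53, 10.7 and 6.00 FPKM in the controls, 6.70, 6.36 and 6.86 at 1 h, and 12.7, 7.67 and 10.0 at 6 h. It was highest in 6 h library 1, where most subunits were low. Its log2 change from 1 h to 6 h was the largest of any member, 0.52 with an adjusted limma p of 0.419. Ndufs1 was at 30.6, 42.5 and 33.9 FPKM in the controls, 29.6, 36.9 and 31.4 at 1 h, and 32.2, 29.8 and 35.1 at 6 h, so its replicate 2 was the highest in the first groups and the lowest in the last. Ndufs6, an accessory subunit, followed the pattern most closely, with an SD of 0.05.

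In the catalytic core of the complexes no difference passed the test. The flavoprotein Sdha was at 60.5, 74.0 and 64.4 FPKM in the controls, 59.3, 61.3 and 56.1 at 1 h, and 48.9, 71.2 and 62.2 at 6 h. The Rieske protein Uqcrfs1 of complex III was at 91.1, 103 and 75.4 FPKM in the controls and 73.6, 73.0 and 70.6 at 1 h, which did not overlap (log2 change −0.30, limma adjusted p = 0.523). Atp5a1, the alpha subunit of the synthase, was at 208, 259 and 171 FPKM in the controls and 176, 198 and 170 at 1 h. The complex I iron-sulfur subunits Ndufs7 and Ndufs8 had log2 changes of −0.29 and −0.35 at 1 h, and the flavin-binding Ndufv1 and its partner Ndufv2 of −0.21 and −0.17. The smallest adjusted limma p among the complex I core was 0.514 at 1 h.

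Genes of the same pathway outside the symbol rule were read from lists, with 0 called in any comparison. Of all 11460 tested genes, 8729 were negative at 1 h and 7205 positive from 1 h to 6 h. Of 7 tested nuclear subunits and partners, 6 were negative at 1 h (median log2 change −0.23) and 7 positive from 1 h to 6 h (median 0.31), led in level by the synthase-associated protein Usmg5 at 266 FPKM. Of 41 other assembly factors, 37 were negative at 1 h (median −0.27) and 39 positive from 1 h to 6 h (median 0.29). The highest was Uqcc2, a complex III assembly factor, at 125 FPKM. Of 22 genes for electron entry, coenzyme Q and carriers, 20 were negative at 1 h (median −0.21) and 20 positive afterwards (median 0.19), led by the ADP/ATP carrier Slc25a4 at 361 FPKM. Of 12 regulators, 9 were negative at 1 h (median −0.22) and 9 positive afterwards (median 0.14). Ppargc1a, the coactivator best known for inducing these genes, was at most 0.04 FPKM. Polrmt, the mitochondrial RNA polymerase (named after its values were seen), was at 5.89, 6.27 and 5.48 FPKM in the controls, 3.81, 3.88 and 3.09 at 1 h, and 6.58, 5.98 and 6.38 at 6 h. Its 1 h values lay below all others, with a log2 change of −0.59 (limma, adjusted p = 0.243).

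Ribosomal protein genes, which are also short, give a scale for these values. The 77 mitochondrial ribosomal protein genes had a median log2 change of −0.27 at 1 h (77 negative) and 0.37 from 1 h to 6 h (77 positive), of which 25 and 42 did not overlap between groups (21.4% and 15.2% of all tested genes). The 83 cytosolic ribosomal protein genes had medians of 0.03 at 1 h against control, 0.35 at 6 h against control and 0.33 from 1 h to 6 h. By library, their median deviation was 0.05, 0.17 and −0.61 log2 units in the controls. It was −0.05, −0.05 and −0.19 at 1 h, and −0.14, 0.64 and 0.18 at 6 h. Control 3 and 6 h library 2 thus stood far from the rest. With control 3 included, the respiratory genes at 1 h (−0.19) lay between the mitochondrial and cytosolic sets. The differences between the sets were not tested.

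The authors' deposited table, which tests group values with DEGseq, marked far more of the members. There, in the authors' deposited table, 71 of 88 members had a q-value of at most 0.001 and were lower at 1 h, where 56.7% of all tested genes were, and 2 were higher (13.6% of all tested genes). For 6 h against control the authors' deposited table had 39 higher (19.5% of all tested genes) and 7 lower (36.1%), and for 6 h against 1 h 79 higher (44.2%) and 2 lower (19.7%). A change of at least 2-fold beside that q-value was reached in the authors' deposited table by 2 members at 1 h (Ndufa4l2 and Cox4i2, higher, where 3.12% of all tested genes were), by 0 at 6 h against control and by the same 2, lower, from 1 h to 6 h (1.85%). The authors' Mfuzz clustering of group profiles, also in the authors' deposited table, put 31 members (35.2%) in cluster 10, 24 (27.3%) in cluster 1 and 16 (18.2%) in cluster 12, which held 9.55%, 12.7% and 12.4% of all tested genes. Over the tested genes of each of these 3 clusters, the median deviation was lowest at 1 h.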

How the data were processed

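The members and gene lists were chosen with earlier results of these data known. Per the submitters' processing notes, HISAT2 2.0.4, Bowtie2 2.2.5, RSEM 1.2.12 and mm10 were used, in roles not given in the sources used here. Per the file headers, the values deposited are FPKM per library. It also holds the authors' log2 fold changes, p-values and DEGseq q-values, and the authors' Mfuzz cluster numbers with a membership fraction, which was not used. Genes reaching 1 FPKM in 3 or more of the 9 libraries were tested with limma 3.58.1 (R 4.3.3) on log2(FPKM + 1), which understates changes of low genes, with a variance trend, all 9 libraries in 1 fit (6 residual degrees of freedom), two-sided, Benjamini-Hochberg adjustment over 11460 genes and a threshold of 0.05. FPKM are not counts, so no count test was run. On simulated data with changes at 1 h, the fit recovered 52% of changes of 1 log2 unit and 91% of changes of 2, with 11 false calls. Changes as small as most of those seen here were not simulated, nor were shifts shared by many genes of a library. Depth was read from the smallest values, of which 90.1% to 92.7% lay within 0.2 of a whole read (40% by chance), over transcripts of 400 to 1200 bp. Named members were the 4 largest positive and 4 largest negative changes per comparison, the highest member of each complex, the isoform families and the catalytic core. Replicate numbers were checked for pairing by correlating deviations from group means across genes. Same-numbered control and 1 h libraries gave 0.19, 0.15 and 0.26, all above 0.1, and were taken as paired. Differently numbered ones gave −0.28 to 0.17. Control 2 with 1 h library 1 (0.17) was thus above 0.1 too, so the pairing is uncertain. Same-numbered control and 6 h libraries gave −0.18, 0.04 and 0.01, and 1 h and 6 h libraries −0.27, −0.10 and −0.35. Neither were taken as paired. The alternatives numbered 20, of which 2 were chosen after the data were seen (length correction by a lowess curve of span 0.3, and leaving out control 3 and 6 h library 2 together). Among the complex I genes, 1 is included in counts and medians and is otherwise not reported here.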

Additional observations from a re-analysis of the deposited data

How the results depend on the processing

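The number of members called was 0 in either direction in all 3 comparisons and under all 20 alternatives. The median log2 change over members was −0.1945 at 1 h against control (−0.3095 to −0.1205 when a library was left out), 0.28 from 1 h to 6 h (0.1811 to 0.4085) and 0.09 at 6 h against control (−0.0453 to 0.2072). The 1 h median lay outside that range, near 0, with median-of-ratios scaling (−0.02554) and with length correction (−0.04084). The 6 h median changed sign without control replicate 3 (−0.0453), without 6 h replicate 2 (−0.01965), without both (−0.1422) and with length correction (−0.02615), and the median from 1 h to 6 h fell to 0.01758 with length correction. The cause was not tested. With the replicate block, 0 members were called, the medians were the same and the smallest adjusted limma p was 0.544, 0.92 and 0.505 for the 3 comparisons. The block spanned all 9 libraries, including the 6 h libraries that were not taken as paired. A paired fit of the control and 1 h libraries alone was not run. The block changed no call of a member. With 3 libraries a group, changes of the size seen here (under 0.6 log2 units for all members but Ndufa4l2 and Cox4i2) lie near the spread between replicates, and depth bears most on the forms near or below 1 FPKM (Cox6a2, Cox7b2, Cox8c). Of the values for single members, 2334 of 2334 kept their side of the threshold, since none was called.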

Other observations

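Partners of the chain outside the symbol rule, picked after their values were seen, followed 2 patterns. Cycs and Cyc1, the cytochrome c that links complexes III and IV and the cytochrome c1 that feeds it, varied as the subunits did. Cycs was at 76.4, 93.2 and 59.7 FPKM in the controls, 52.3, 63.2 and 58.2 at 1 h, and 67.3, 74.2 and 87.97 at 6 h. Cyc1 was at 79.4, 107 and 72.8 FPKM in the controls and 58.9, 66.4 and 71.0 at 1 h, without overlap (log2 change −0.38, limma adjusted p = 0.485). Higd1a, a hypoxia-inducible partner of complex IV, instead was highest in control 1 and 1 h library 1, with 63.7, 33.0 and 24.9 FPKM in the controls, 58.6, 34.9 and 34.6 at 1 h, and 49.2, 35.4 and 53.8 at 6 h.

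Nrf1, whose motif type is the commonest of those searched in these promoters, was at 6.47, 7.21 and 5.33 FPKM in the controls, 5.03, 4.06 and 3.46 at 1 h, and 9.01, 4.64 and 7.42 at 6 h. Its 1 h values lay below all control values (log2 change −0.50, limma adjusted p = 0.477). Hif1a was at 156, 193 and 185 FPKM in the controls and 133, 94.7 and 140 at 6 h, a log2 change of −0.55 (limma, adjusted p = 0.877), again without overlap.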
